A study of Zea mays with 8 samples.

Results

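Immature ears of a maize hybrid homozygous for a mop1 mutation were compared with ears of the wild-type hybrid by RNA sequencing. The comparison rests on 4 of the 8 libraries of the study, chosen by their titles: 2 of the mutant hybrid (mop1F1) and 2 of the wild-type hybrid (WTF1). The mutant is labelled B73/Mo17 with the genotype mop1/mop1, and the wild type Mo17/B73 with the genotype +/+. Both are thus hybrids of the inbred lines B73 and Mo17. The order of the parents in the label changes with the genotype, and its meaning is not stated. If it gives the direction of the cross, effects of mop1 and of cross direction cannot be told apart. The labels give no further account of the crosses, the allele or the age of the ears. Nor do they say whether a library is 1 plant or a pool. A p-value weighs the difference between mutant and wild type against the spread of libraries within the groups of the fit. That spread may be technical. The other 4 libraries, 2 of B73 and 2 of Mo17, entered the fit and serve as a background level for single gene IDs.

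The mop1 gene of maize encodes an RNA-dependent RNA polymerase. It makes double-stranded RNA that is cut into the small RNAs of RNA-directed DNA methylation, a pathway that adds methyl groups to cytosines, in the CHH context above all, near genes and at transposons. In maize, mop1 is also known for its part in paramutation, where one allele heritably silences another, and for the silencing of transposons. The immature ear holds the inflorescence and floral meristems. The study, per its title, asks how CHH methylation is set up and kept and how it bears on gene expression.

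The deposited tables list 39498 gene IDs, and 0 of them matched the gene table used here, so no ID is given a gene name or a function. Known maize genes, mop1 and markers of the ear among them, were therefore not analysed here by name, and the label of the tissue was not checked. The members described are IDs, grouped by how they moved, by their level in the parents and by their ID number. IDs numbered Zm00001d003045 to Zm00001d003422, which were set aside as linked to mop1, are left out unless they are named. At most 2 IDs higher and 2 lower in the mutant are printed.

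The libraries held 11723096 and 26199577 counts in WTF1, and 23505695 and 26042879 in mop1F1, in the order of their replicate numbers. The column names tie the hybrids into pairs. Replicate 1 of each carries the prefix GP1 and replicate 2 the prefix GP5, whose meaning is not stated. Both GP1 libraries stood apart by their reads assigned to more than 1 gene, which made up 9.70% of records in WTF1 and 10.3% in mop1F1, against 1.29% and 1.35% in the GP5 libraries. Values are therefore given for each pair. Levels are in CPM, counts scaled to library size with TMM factors, and a difference within a pair is the log2 CPM of mop1F1 minus that of WTF1, with a prior count of 2.

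Very few IDs passed the test of mutant against wild type, and with 2 libraries per group differences could be missed. Of 24511 IDs tested, 2 passed an adjusted p of 0.05 (edgeR quasi-likelihood test; 0.00816% of IDs). Outside the linked numbers, 1 of 24311 IDs rose in mop1F1 (0.00411%) and 0 fell. At an unadjusted p below 0.05, 284 of these IDs were higher (1.17%) and 141 were lower (0.58%) in the edgeR test. Those 425 IDs are fewer than the threshold alone would pass if no ID differed and p-values were evenly spread. The DESeq2 Wald test, which covered a larger set of 30432 IDs with the linked ones included, called 28 higher and 5 lower outside the linked numbers. The edgeR count depended on single libraries: outside the linked numbers it was 0 without WTF1 replicate 1, WTF1 replicate 2 or mop1F1 replicate 2, and 181 (11 higher and 170 lower) without mop1F1 replicate 1. In whole-ear RNA, fewer cells of a type and less RNA per cell cannot be told apart.

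The ID that rose was Zm00001d025803. It had 0.254 and 0.192 CPM in the 2 WTF1 libraries and 19.1 and 17.5 CPM in the 2 mop1F1 libraries. In the parents it had 0.108 and 0.0579 CPM in B73 and 0.634 and 0.441 CPM in Mo17. Both mutant libraries were thus far above the other 6, and the groups did not overlap. edgeR fitted 6.36 ± 0.53 on the log2 scale (SE, quasi-likelihood test, n = 2 per group, adjusted p = 0.0449). The difference was 5.75 in the GP1 pair and 5.90 in the GP5 pair. The WTF1 level rested on 8 counts over both libraries against 861 in mop1F1, a ratio of 86.0 with a 95% exact interval from 43.5 to 199.9 that covers counting error only. Without WTF1 replicate 1, WTF1 replicate 2 or mop1F1 replicate 2 the call for Zm00001d025803 was lost (edgeR, adjusted p = 0.342, 0.142 and 0.0624), while the log2 fold change stayed at 6.54, 6.09 and 6.42. It was also lost in the 4 hybrid libraries alone and with a term for GP1 in the fit of all 8 (edgeR, adjusted p = 0.802 and 0.0684). It was kept without mop1F1 replicate 1 (edgeR, adjusted p = 0.0197), without the filter on low counts (edgeR, 0.00295) and with DESeq2 (1.9e-14).

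Zm00001d005095 had the next largest shared difference among IDs with at least 5 CPM in the mutant and no overlap, and it did not pass the edgeR test. It had 0 counts in WTF1 replicate 1 and 0.0768 CPM in replicate 2, against 4.65 and 6.81 CPM in mop1F1. It was at 0 counts in both B73 libraries and in Mo17 replicate 1, and at 0.110 CPM in Mo17 replicate 2. Reads of Zm00001d005095 were therefore nearly confined to the 2 mutant libraries among these 8. In the GP1 pair the level was at least 18.3-fold higher in mop1F1, taking 3 counts as the limit for the wild-type library. Over both pairs, 277 counts in mop1F1 stood against 2 in WTF1, a ratio of 110.7 with a 95% exact interval from 30.4 to 918.8 for counting error. The edgeR test across all IDs gave 6.68 ± 1.21 on the log2 scale (SE, n = 2 per group, adjusted p = 0.978). DESeq2 called it higher (adjusted p = 0.00203), and over 11 settings the adjusted p of Zm00001d005095 ran from 0.00203 to 1.

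**Figure D1:**
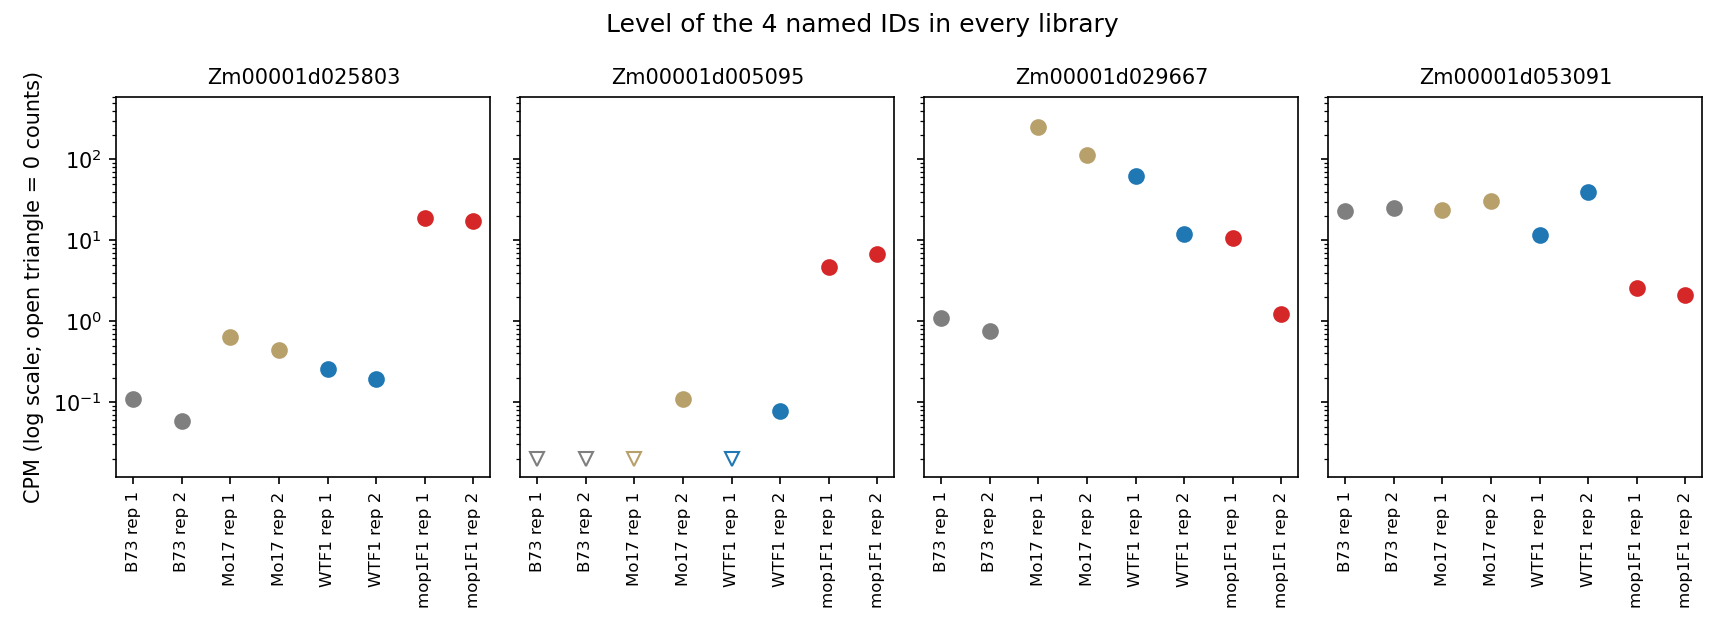
Level of the 4 named IDs in each of the 8 libraries, in CPM on a log axis, with 1 point per library coloured by group and an open triangle for 0 counts. Zm00001d025803 and Zm00001d005095 are high in the mop1F1 libraries alone, Zm00001d053091 is lower there than in the other 6 libraries, and Zm00001d029667 differs more between the parents than between the hybrids.

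Among the IDs lower in mop1F1 with at least 5 CPM in the wild type and no overlap between the groups, Zm00001d029667 had the largest difference shared by both pairs. Larger shared differences occurred at lower levels. It had 61.7 and 12.02 CPM in WTF1 and 10.8 and 1.22 CPM in mop1F1. The highest mutant library thus lay just under the lowest wild-type library. In the parents the level of Zm00001d029667 was 1.08 and 0.752 CPM in B73 and 251.4 and 112.5 CPM in Mo17, so all 4 hybrid libraries lay between the parents. The difference was -2.51 in the GP1 pair and -3.20 in the GP5 pair. The fit gave -2.62 ± 1.06 on the log2 scale (SE, edgeR quasi-likelihood test, n = 2 per group, adjusted p = 1). The value of Zm00001d029667 depended on single libraries: it was -0.99 without WTF1 replicate 1, -1.76 without mop1F1 replicate 2, -3.43 without WTF1 replicate 2 and -4.96 without mop1F1 replicate 1. Reads of Mo17 were counted against Mo17 and those of the hybrids against B73, so these levels do not come from the same genome.

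Zm00001d053091 came next under the same limits of level and overlap. It had 11.6 and 39.2 CPM in WTF1 and 2.56 and 2.09 CPM in mop1F1. The parents were close to each other, with 23.2 and 25.4 CPM in B73 and 23.5 and 30.9 CPM in Mo17. The mutant libraries were the lowest of the 8, and the 2 wild-type libraries lay below and above all 4 parental ones. The difference was -2.13 in the GP1 pair and -4.16 in the GP5 pair, and edgeR fitted -3.45 ± 0.57 on the log2 scale (SE, quasi-likelihood test, n = 2 per group, adjusted p = 0.601). DESeq2 called Zm00001d053091 lower in mop1F1 (adjusted p = 2.92e-06), and over 11 settings its adjusted p ran from 2.92e-06 to 1.

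Over all IDs, the 2 pairs gave different answers. At least a 2-fold difference between mutant and wild type was seen at 4480 IDs in the GP1 pair (18.4% of 24311): the mutant was higher at 2667 and lower at 1813. In the GP5 pair it was seen at 3671 IDs (15.1%), with the mutant higher at 1610 and lower at 2061. The balance of directions was thus opposite in the 2 pairs. Across IDs the 2 differences were negatively correlated (Pearson's r = -0.30, Spearman's rho = -0.40, n = 24311 IDs). IDs are not independent replicates, and the pairs share no library but do share the scaling and the annotation.

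Libraries of the same genotype were further apart than libraries of the same prefix. The 2 WTF1 libraries differed at least 2-fold at 6450 IDs (26.5%) and the 2 mop1F1 libraries at 6725 (27.7%). Between the 2 libraries of an inbred parent this was 5.33% in B73 and 7.13% in Mo17. From GP1 to GP5, more IDs were lower than higher in both genotypes: 4087 against 2363 in WTF1 and 4699 against 2026 in mop1F1. The prefix and the share of reads assigned to more than 1 gene move together here and cannot be told apart, and WTF1 replicate 1 was also the shallowest hybrid library.

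Movement in opposite directions was more common than movement in the same direction. Among 22116 IDs with a mean of at least 1 CPM in the higher group, 32.4% had the same sign in both pairs, 4114 of them higher and 3044 lower in mop1F1. At 2-fold or more in each pair, 150 IDs were higher in mop1F1 in both pairs (0.617% of the IDs tested) and 84 were lower (0.346%). In the same comparison 939 IDs (3.86%) moved 2-fold or more in opposite directions: 462 were higher in GP1 and lower in GP5, and 477 the reverse. At 4-fold or more, 39 were higher and 7 lower in both pairs, against 131 in opposite directions. At 8-fold or more it was 18 higher and 2 lower, against 25 in opposite directions. The ratio of opposite to same-way IDs was thus smaller at larger differences.

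**Figure D2:**
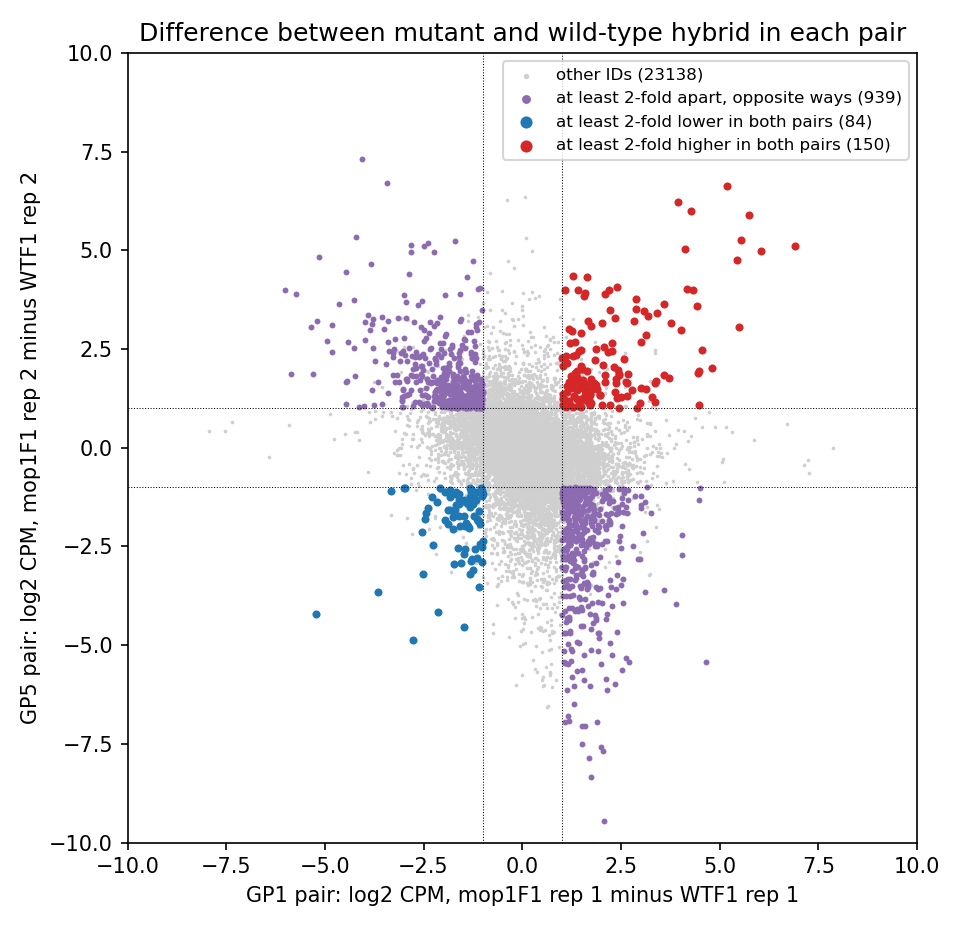
Each point is 1 of 24311 IDs outside the linked numbers, placed by its log2 CPM difference (mop1F1 minus WTF1) in the GP1 pair on the x axis and in the GP5 pair on the y axis, with dotted lines at 2-fold. The 150 red and 84 blue points moved the same way in both pairs, and the 939 purple points moved opposite ways.

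**Figure D3:**
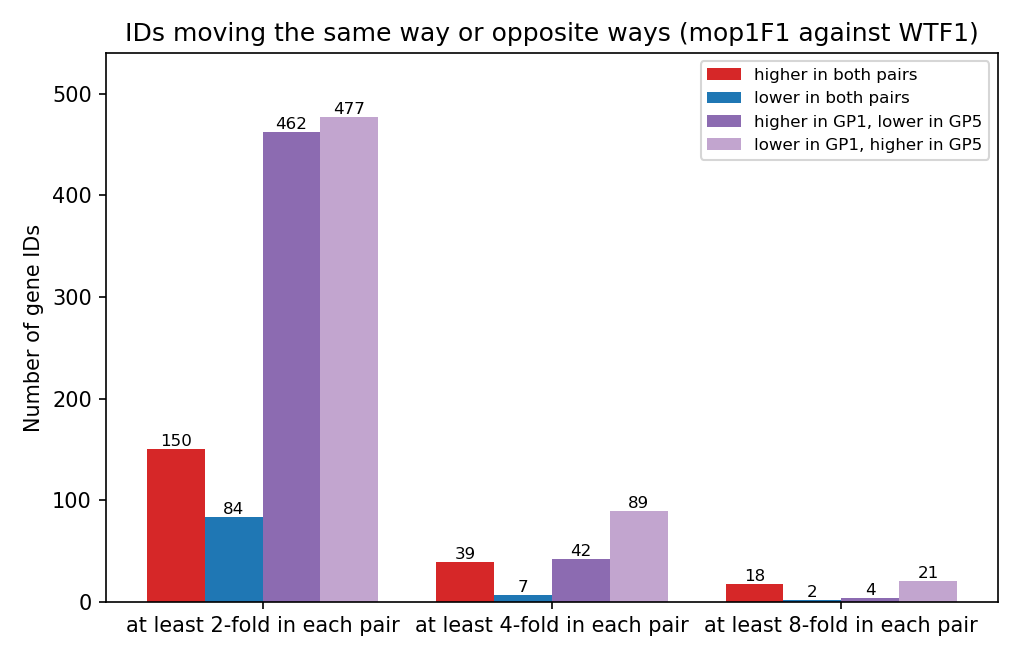
Number of IDs that differed between mop1F1 and WTF1 by at least 2-, 4- or 8-fold in each pair, the same way or opposite ways. The bars for opposite ways are the tallest at 2-fold (462 and 477 against 150 and 84), while at 8-fold 18 IDs were higher in both pairs and 25 moved opposite ways.

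The 150 IDs higher in both pairs had median differences of 1.85 in the GP1 pair and 1.85 in the GP5 pair, and the 84 lower ones -1.47 and -1.69. These values chose the IDs and are given as a description. The smaller of the 2 differences ran from 1.01 to 5.75 among the higher IDs and from 1.01 to 4.22 in size among the lower ones. The nearest IDs left out had 0.999 and -0.998. Of the 150 higher IDs, 130 had no overlap between the 2 mutant and the 2 wild-type libraries, and of the 84 lower IDs 58 had none. The same libraries chose the IDs, so a lack of overlap was made more likely by the choice. Over all IDs outside the linked numbers, 12.9% had no overlap, 7.61% higher and 5.27% lower. Of these 3132 IDs without overlap, 188 were among the IDs at least 2-fold apart in both pairs.

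The 2-fold rule used the hybrid libraries alone, while the filter on low counts also used the parental ones. IDs that moved the same way were mostly low in the parents. The mean over the 4 parental libraries was below 10 CPM at 120 of the 150 higher IDs (80.0%) and at 64 of the 84 lower IDs (76.2%). Of all 22116 IDs with at least 1 CPM in the higher hybrid group it was 31.0%. At 39 of the 150 higher IDs (26.0%) and 11 of the 84 lower IDs (13.1%) all 4 parental libraries were below 1 CPM, against 2.37% of all. An ID silent in the parents could pass the limits through 1 hybrid group alone. Low parental levels were thus made more likely by the choice. IDs that moved in opposite directions were also more common at low levels. They made up 18.2% of IDs with a parental mean below 1 CPM, 7.53% between 1 and 10 CPM, 2.05% between 10 and 100 CPM and 2.43% above 100 CPM. In the same classes the higher IDs made up 6.13%, 1.04%, 0.223% and 0.0441%. Counting error is largest at low levels, and its part in these shares was not tested. The same holds for the genome used, which was Mo17 for the Mo17 libraries and B73 for all others.

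The median level of the 150 higher IDs was below the parents in the wild-type hybrid and above them in the mutant. Their median was 0.846 and 0.787 CPM in WTF1 and 4.65 and 4.41 CPM in mop1F1. In the parents it was 1.46 and 1.42 CPM in B73 and 0.950 and 1.38 CPM in Mo17. The mutant medians were thus further from the parental ones than the wild-type medians were. Both mop1F1 libraries were above all 4 parental libraries at 84 of the 150 IDs (56.0%), and both WTF1 libraries were below all 4 at 24 (16%). Of all 22116 IDs the shares were 14.9% and 11.3%. Because the IDs were chosen for a mutant level above the wild type, both positions relative to the parents were made more likely by the choice.

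**Figure D4:**
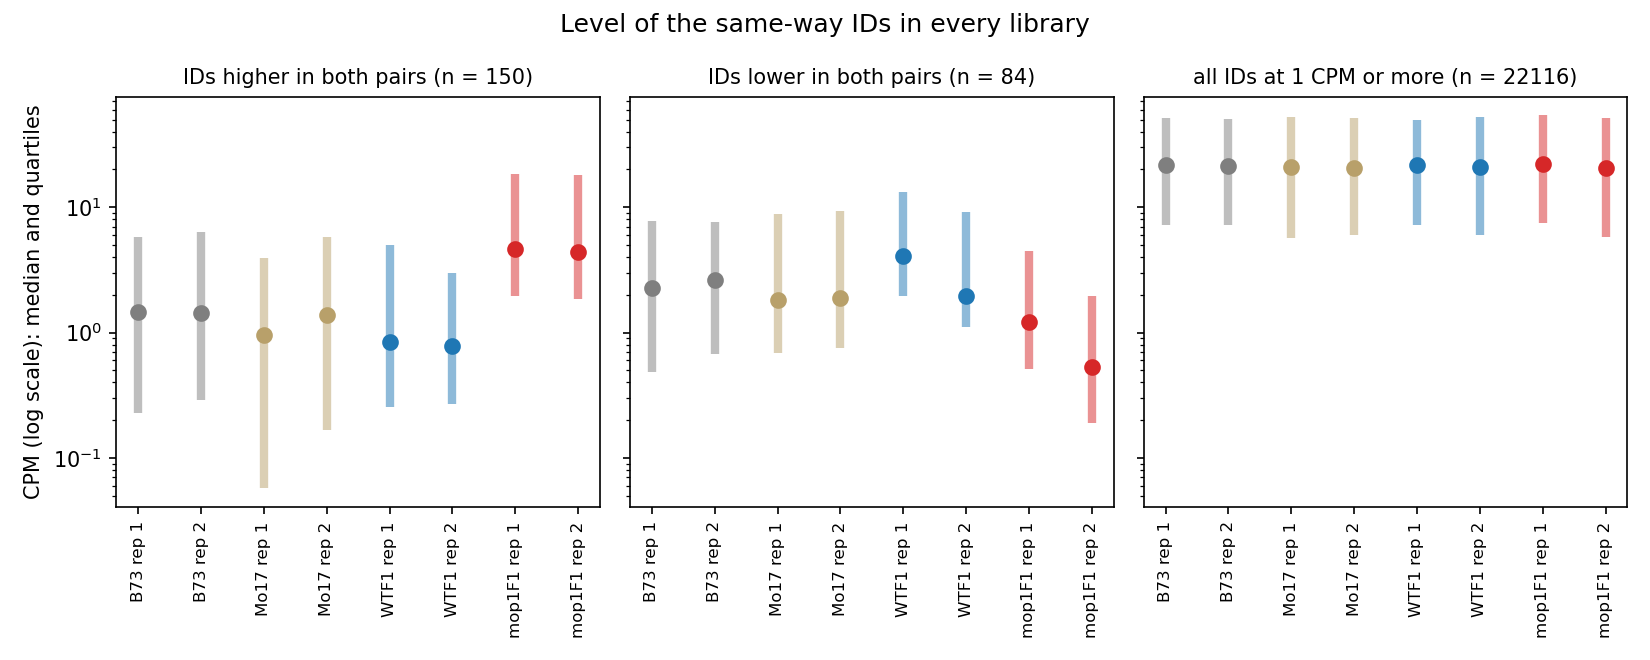
Median (point) and quartiles (bar) of the CPM in each library, on a log axis, for the 150 IDs higher in mop1F1 in both pairs, the 84 IDs lower in both pairs and all 22116 IDs at 1 CPM or more in the higher hybrid group. The higher IDs have medians of 4.65 and 4.41 CPM in mop1F1 against 0.787 to 1.46 CPM in the other 6 libraries.

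For the 84 lower IDs the separation from the parents was smaller. Their median was 4.10 and 1.96 CPM in WTF1 and 1.21 and 0.533 CPM in mop1F1. In the parents it was 2.25 and 2.63 CPM in B73 and 1.81 and 1.90 CPM in Mo17. The wild-type medians were thus within or above the parental range and the mutant medians below it. Both mop1F1 libraries were below all 4 parental libraries at 27 IDs (32.1%), and both WTF1 libraries were above all 4 at 17 (20.2%). Of all 22116 IDs these shares were 10.4% and 14.6%. Because the IDs were chosen for a mutant level below the wild type, both positions relative to the parents were made more likely by the choice.

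A near-silent state in the wild type with at least 5 CPM in the mutant was rare. The reverse was not seen at that limit outside the linked numbers. Below 1 CPM in both WTF1 libraries and at least 5 CPM in both mop1F1 libraries were 5 of 24311 IDs, Zm00001d025803 among them. In WTF1 these 5 IDs had 0.0846 to 0.254 CPM in replicate 1 and 0.0384 to 0.653 CPM in replicate 2. In mop1F1 they had 6.64 to 22.1 CPM and 6.77 to 25.9 CPM. At 4 of the 5 IDs all parental libraries were also below 1 CPM, and the highest parental value was 1.35 CPM, in B73 replicate 1. The reverse pattern was found at 0 IDs outside the linked numbers and at 1 ID within them. A second limit asked for 0 counts in both libraries of a group and at least 1 CPM in both of the other. Outside the linked numbers, 2 IDs met it with 0 counts in WTF1 and 1 ID with 0 counts in mop1F1. Of the 18 IDs at least 8-fold higher in both pairs, 14 were below 1 CPM in all 4 parental libraries, and both mutant libraries exceeded all parental ones at 17. Of all 22116 IDs with at least 1 CPM in the higher hybrid group, the shares were 2.37% and 14.9%. An ID silent elsewhere could enter through the mutant alone, and a large ratio favours such IDs. Both counts were thus made more likely by the choice.

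IDs with a large difference between the parents held a larger share of same-way IDs, which was not tested. Among 1522 IDs at least 4-fold higher in B73 than in Mo17, 33 (2.17%) were higher and 11 (0.723%) lower in mop1F1 in both pairs. Among 761 IDs at least 4-fold higher in Mo17 it was 21 (2.76%) and 7 (0.92%). Among the 19833 IDs less than 4-fold apart it was 96 (0.484%) and 66 (0.333%). IDs that moved in opposite directions made up 10.3% of the B73-biased IDs, 7.10% of the Mo17-biased IDs and 3.67% of the others. The median difference of the Mo17-biased IDs was -0.23 in the GP1 pair and 0.31 in the GP5 pair, so Mo17-biased IDs as a class were lower in the mutant in 1 pair and higher in the other. For the B73-biased IDs it was -0.03 and 0.15. Low level and parental bias occur in the same IDs, and their parts were not separated. Reads of Mo17 were counted against the Mo17 genome and those of B73 and the hybrids against B73. A parental difference may thus come in part from the genome used, which was not tested.

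Of the 150 higher IDs, 34 (22.7%) had another of the 150 within 20 ID numbers. Of all 24291 IDs with such a number, 2667 (11%) had one of the 150 that near, and the difference was not tested. Of the 84 lower IDs, 6 (7.14%) had another of the 84 that near, against 6.73% of all. The densest stretch of higher IDs within 100 numbers ran from 2384 to 2455 and held 6 of 49 tested IDs (12.2%). For the lower IDs it ran from 21682 to 21738 and held 3 of 39 (7.69%). Both stretches were chosen because their count was the highest. The numbers just before the linked ones, 2667 to 3044, held 1 higher and 2 lower of 201 tested IDs, and those just after, 3423 to 3800, held 2 higher and 2 lower of 179. Among the 200 tested IDs of the linked numbers themselves, 8 (4.0%) were higher and 21 (10.5%) lower in both pairs. These were set aside by their number, which earlier results of these data had singled out, and the contrast is a description.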

How the data were processed

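RNA of 8 libraries of immature maize ears was sequenced, 2 for each of 4 groups, which were taken from the sample titles. The authors deposited whole-number counts per gene ID for each library. Per the submitters' processing notes, which give no versions, the tools were FastQC, Trimmomatic, HISAT2, HTSeq and DESeq2. The names of the deposited tables give Mo17 as the genome for the Mo17 libraries and B73 for all others, hybrids included, whose Mo17 reads may be lost there. The strand setting, annotation release and options are not stated, so overlapping, antisense and near-identical genes cannot be told apart. Library sizes and tests exclude the 5 summary rows. They held 3.64% to 5.79% of records without a feature, 1.29% to 10.3% ambiguous, 1.76% to 9.35% of low quality, 2.00% to 6.11% unaligned and 2.80% to 3.43% with several alignments.

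The test was that of edgeR 4.0.16 under R 4.3.3: filterByExpr by group, TMM, a group-means design over all 8 libraries, the quasi-likelihood F test and Benjamini-Hochberg adjustment over 24511 IDs at 0.05. The standard error is the log2 fold change divided by the square root of F. It rests on the spread within all groups, and libraries of a parent differed at fewer IDs than those of a hybrid group. The fit was also run on simulated data with 200 changed IDs. Simulated libraries of a group had the same mean at each ID, with no difference between GP1 and GP5. That run therefore does not test the fit for libraries that differ by prefix. Pair differences used log2 CPM with a prior count of 2. An ID counted as moving the same way when it differed by at least 2-fold with 1 sign in both pairs and had a mean of at least 1 CPM in the higher group. A count of 0 allows up to 3 counts, 0.115 to 0.256 CPM per library, for counting error only.

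Named IDs are the 2 higher and 2 lower ones with the largest smaller-of-both-pairs difference, at least 5 CPM in the higher group and no overlap between groups. The table searched for names is that of assembly Zm-B73-REFERENCE-NAM-5.0. Since no ID matched, 12 lists of symbols and 28 of protein families were not tested. Members, lists and rules were chosen with earlier results of these data known. Alternatives were DESeq2 1.42.0 and its size factors, no filter, the hybrids alone with and without a block, each library left out, and other priors, minima and folds. A block in the fit of all libraries, thinning and single pairs were added after the data were seen.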

Additional observations from a re-analysis of the deposited data

Results flagged for a closer look

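At 939 IDs the mutant hybrid differed from the wild type by at least 2-fold in both pairs but in opposite directions, 462 higher in GP1 and lower in GP5 and 477 the reverse. With 1 library of each genotype per prefix, the difference between the pairs was not tested.

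Among the records that the counting set aside, which no comparison used, 3 shares in a mutant library exceeded both wild-type libraries. In mop1F1 replicate 2, 5.79% of records fell on no feature, against 4.31% and 5.24% in WTF1. Ambiguous reads made up 10.3% in mop1F1 replicate 1, against 9.70% and 1.29%. Reads with several alignments made up 3.43% in mop1F1 replicate 2, against 3.37% and 3.09%. Other mutant shares were below both wild-type libraries. In mop1F1 replicate 1, 3.64% fell on no feature and 2.79% were unaligned, the latter against 3.04% and 3.21% in WTF1. In mop1F1 replicate 2, 8.01% were of low quality, against 9.35% and 8.31%. No share was above both wild-type libraries in both mutant libraries.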

How the results depend on the processing

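The edgeR count of 2 called IDs, 1 of them outside the linked numbers, was the same with DESeq2 size factors and changed under other choices. Without the filter on low counts it was 11 and 7 of 32277 IDs tested, and with the DESeq2 Wald test 41 and 33 of 30432. It was 0 and 0 in the fit of the 4 hybrid libraries alone (edgeR, 170 at an unadjusted p below 0.05; DESeq2 on all libraries called 41). With the replicate number as a block in that fit it was 0 and 0 (edgeR, 262 at an unadjusted p below 0.05), and with a block for GP1 in the fit of all libraries 0 and 0 (edgeR, 822). Deviations of libraries with the same number from their group means correlated at 0.30 over 24311 IDs, and 2 pairs do not show that the numbers pair the samples. Leaving out 1 hybrid library gave 0 to 187 IDs in all and 0 to 181 outside the linked numbers. The 4 named IDs kept their direction under all 11 settings. The log2 fold change of Zm00001d025803 lay between 6.09 and 6.54 (edgeR or DESeq2, adjusted p from 1.9e-14 to 1, below 0.05 in 5 of 11), that of Zm00001d005095 between 6.13 and 9.75 (0.00203 to 1, 1 of 11), that of Zm00001d029667 between -4.96 and -0.99 (0.161 to 1, 0 of 11) and that of Zm00001d053091 between -4.06 and -2.36 (2.92e-06 to 1, 2 of 11). The 234 IDs moving the same way, 150 higher and 84 lower, were 188 to 316 with other priors, scaling, equal depth, no overlap or no minimum level. With a minimum of 5 CPM they were 106 (76 and 30), and with 4-fold 46 (39 and 7), which follows from the stricter rule. In the GP1 pair alone they were 3632 (2179 and 1453) and in the GP5 pair alone 3025 (1324 and 1701). Leaving out a library leaves no second pair, so it gives no such count. WTF1 replicate 1 is the shallowest hybrid library, and its depth limits low IDs most.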
